A study of Drosophila melanogaster with 4 samples.

Results

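Epidermal nuclei of the adult male abdominal cuticle were compared between *oenots>tsc1,tsc2* and *oenots>EGFP* flies by single-nuclei RNA-sequencing. A nucleus was taken as epidermal if its unique molecular identifiers (UMIs, each standing for a captured transcript) of the 6 genes *Cpr49Ae*, *Cpr49Ab*, *Cpr65Au*, *CG14661*, *l(2)34Fc* and *CG13155* summed to 3 or more and exceeded its UMIs of the 8 muscle genes *Mhc*, *sls*, *bt*, *up*, *Scp1*, *Act79B*, *TpnC41C* and *Strn-Mlck*. By this rule 2941 of 25141 nuclei (11.7%) were epidermal, 1377 from *oenots>tsc1,tsc2* and 1564 from *oenots>EGFP* flies. The nuclei were thus chosen by their UMIs of these 14 genes, whose levels are a description, and they were left out of every test. At the edge of the rule, 346 of the epidermal nuclei held a marker sum of 3, while 476 nuclei with a sum of 2 fell just outside and 589 nuclei with enough epidermal UMIs were left out for their muscle UMIs.

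The *oenots>tsc1,tsc2* flies were heterozygous for UAS-Tsc1 and UAS-Tsc2, and the *oenots>EGFP* flies for UAS-2xEGFP. Both were w1118 and also heterozygous for PromE-Gal4 with tub-Gal80ts, so they shared the driver and differed in the transgene under it. PromE-Gal4 drives expression in the oenocytes, the hepatocyte-like cells of the fly, and was not chosen for expression in the epidermis. According to the paper, this driver is active in the male accessory glands as well. The temperature-sensitive Gal80 kept the driver off at 18 °C, and adult males were moved to 29 °C for 4 days before the nuclei were isolated. *tsc1* and *tsc2* encode the tuberous sclerosis complex, an inhibitor of TOR kinase, and the comparison asks what a loss of TOR activity in oenocytes does to the neighbouring epidermis. Each genotype had 2 libraries, each from 40 pooled abdomens with intestines and male reproductive organs dissected away. The labels give standard food for these flies, whereas the study's methods for over-expression describe a high sugar diet after the temperature shift. The 2 genotypes were deposited as separate tables, so a difference in how the tables were made cannot be told apart from genotype.

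The abdominal epidermis is a single layer of cells that secretes the cuticle, the chitin and protein coat of the fly. It makes structural cuticle proteins such as the Cpr family, chitin-modifying enzymes, and enzymes that tan the cuticle with catecholamines such as dopamine. Oenocytes lie beneath it and supply the very long chain fatty acids and hydrocarbons that waterproof the cuticle surface.

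The epidermal nuclei held 1891511 of the 12601994 UMIs in the tables, between 338327 and 618113 per library. *oenots>tsc1,tsc2* replicate 2 stood apart in size, with 2267 nuclei in all against 7213 to 8067 in the other libraries, and in the depth of its epidermal nuclei, with a median of 646 UMIs against 501 to 510. Of the control epidermal nuclei, 1171 of 1564 (74.9%) belonged to a single cluster of the authors' deposited annotation, numbered 3, and 22 (1.41%) to cluster 5. The paper's figure of its finer clustering labels clusters 3 and 5 as muscle. Whether the deposited numbers are those of that figure is not stated by the sources read. The deposited clusters are numbered 0 to 15, whereas the paper counts 15 clusters in that figure, so the numbers need not match. Muscle genes that the rule did not use, 21 in number, were also high in epidermal nuclei, with summed levels of 26112 and 38442 counts per 1000000 UMIs (CPM) in *oenots>tsc1,tsc2* and 28863 and 26422 CPM in *oenots>EGFP* epidermal nuclei, against 9802 to 19268 CPM in the other nuclei of the libraries. The 12 further epidermal markers were at 42178 to 67766 CPM in epidermal nuclei and at 2143 to 3494 CPM in the others. These markers were chosen with earlier results of these data known, so their level is a description and no separate test of the label. Muscle transcripts accompany them. Of the epidermal nuclei, 1404 (47.7%) carried at least 1 UMI of a list of 7 adipose and 6 oenocyte genes, and 60 carried a barcode found in a second library, including 2 pairs in which both nuclei were epidermal. The transgene *gal4* was counted at 16.2 and 47.3 CPM in *oenots>tsc1,tsc2* and 14.7 and 50.0 CPM in *oenots>EGFP* epidermal nuclei, and *Tsc1* and *gig*, the gene for Tsc2, were not analysed here.

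Epidermal nuclei made up 12.9% of *oenots>tsc1,tsc2* replicate 1 (982 of 7594, Wilson 95% interval 12.2 to 13.7) and 17.4% of replicate 2 (395 of 2267, 15.9 to 19.0). In *oenots>EGFP* they made up 11.1% of replicate 1 (801 of 7213, 10.4 to 11.9) and 9.46% of replicate 2 (763 of 8067, 8.84 to 10.1). The *oenots>tsc1,tsc2* shares lay above both controls, also after each nucleus was thinned to 250 UMIs before the rule was applied, when they were 10.2% and 13.9%, against 9.47% and 7.28%. The share is a description, since the genes that choose the nuclei may themselves differ, and 2 libraries against 2 cannot give a two-sided exact permutation p below 0.333. Intervals and floors given here cover counting error only.

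The rule genes showed no common direction. *Cpr49Ab*, a chitin-binding cuticle protein gene, was at 11391 and 17923 CPM in *oenots>tsc1,tsc2* and 11368 and 11377 CPM in *oenots>EGFP* epidermal nuclei. *Cpr65Au*, of the same family, was at 10427 and 19029 CPM in *oenots>tsc1,tsc2* and 18391 and 17123 CPM in *oenots>EGFP*, and *CG14661* at 9853 and 13623 CPM, against 11921 and 8176 CPM. The groups overlapped for *Cpr65Au* and *CG14661* and nearly touched for *Cpr49Ab*. *l(2)34Fc* was the one rule gene with both *oenots>tsc1,tsc2* libraries below both controls, at 2525 and 4720 CPM against 6087 and 4830 CPM. *oenots>tsc1,tsc2* replicate 2 held the highest summed level of the 6 genes, 70045 CPM, and replicate 1 the lowest, 42769 CPM, with 58196 and 51531 CPM in *oenots>EGFP*.

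Counts summed over the epidermal nuclei of each library were tested with edgeR for 5856 genes, and 15 genes passed the threshold of 0.05 after Benjamini-Hochberg adjustment, 0.256% of those tested. Of these, 10 were higher in *oenots>tsc1,tsc2* epidermal nuclei (0.171%) and 5 were lower (0.0854%). The higher genes were *CG43101*, *Dro*, *CG17242*, *Obp51a*, *msopa*, *blanks*, *CG31128*, *whip*, *soti* and *Obp56d*, and the lower genes were *CG33143*, *Sgp*, *CG42821*, *LpR1* and *FASN3*. At an unadjusted p under 0.05 there were 467 genes (7.97%). The count rested on the libraries in the fit: without *oenots>tsc1,tsc2* replicate 2 no gene passed (539 at an unadjusted p under 0.05), without its replicate 1 there were 217, and without *oenots>EGFP* replicate 1 or 2 there were 26 and 22. DESeq2 called 38 genes, 12 of them among the 15. Each of the 15 kept its direction in every setting in which it was tested.

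**Figure D1:**
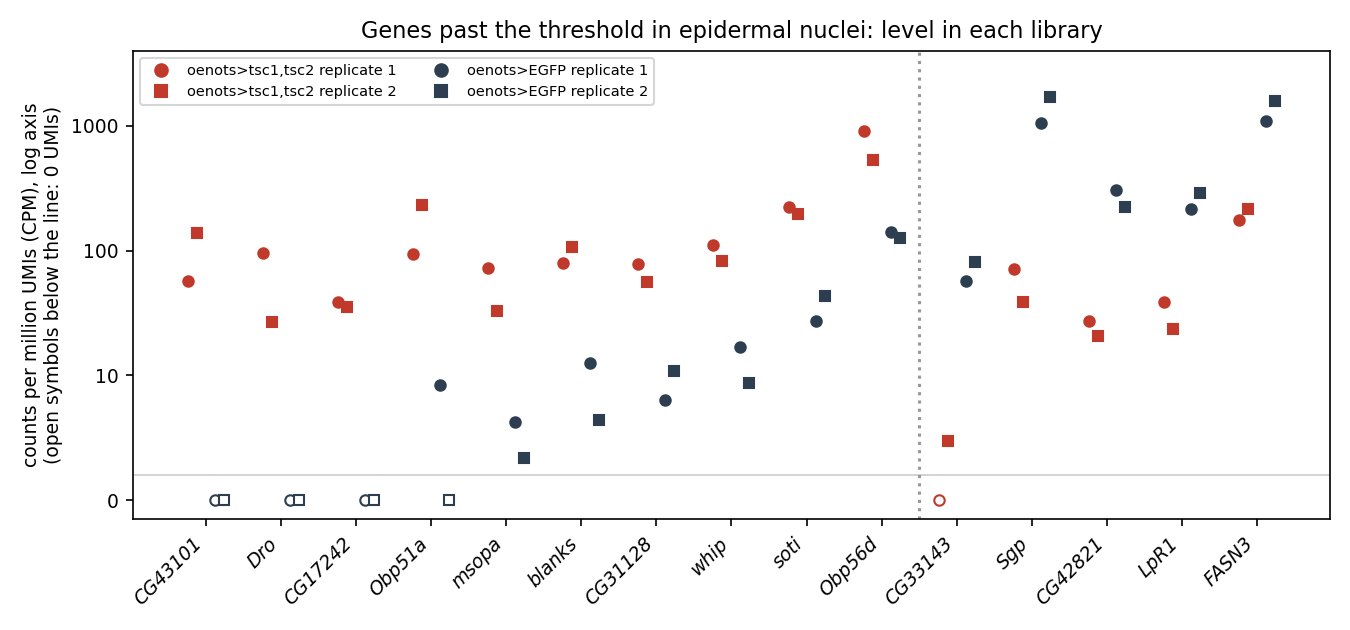
Level of the 15 genes past the threshold in epidermal nuclei, in CPM on a log axis, with 1 symbol per library (*oenots>tsc1,tsc2* left, *oenots>EGFP* right of each name) and open symbols below the line for 0 UMIs. The libraries of the genotypes do not overlap for any of these genes, and *CG43101*, *Dro* and *CG17242* had 0 UMIs in both *oenots>EGFP* libraries.

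*CG42821*, on chromosome arm 3R from 17413077 to 17413639 of Release 6 of the genome, was the only called gene at least 5-fold higher in epidermal nuclei than in the other nuclei, by 8.86-fold over the 4 libraries. It had 17 and 7 UMIs in *oenots>tsc1,tsc2* epidermal nuclei (27.5 and 20.7 CPM), against 146 and 103 UMIs in *oenots>EGFP* epidermal nuclei (307 and 224 CPM). Both *oenots>tsc1,tsc2* libraries lay far below both controls, and the log2 fold change was -3.31 (standard error, SE, 0.45, Benjamini-Hochberg adjusted p = 0.0466 in edgeR). The means were 24.1 ± 4.82 CPM in *oenots>tsc1,tsc2* and 266 ± 58.7 CPM in *oenots>EGFP* (SD, n = 2 each).

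The UMIs of *CG42821* were spread over many nuclei. They came from 16 and 7 epidermal nuclei of *oenots>tsc1,tsc2* (1.63% and 1.77%) and from 97 and 80 epidermal nuclei of *oenots>EGFP* (12.1% and 10.5%). At an equal depth of 250 UMIs per nucleus the shares were 1.02% and 0 of 395 nuclei, which allows up to 0.759%, against 6.74% and 4.33%. In the other nuclei at that depth they were 0.227% and 0.0534%, against 0.749% and 0.534%, so the epidermal share in *oenots>EGFP* was well above that of the surrounding nuclei. Within the *oenots>EGFP* epidermal nuclei, the UMI was found in 13.8% of those in deposited cluster 3 and in 3.82% of those outside it. In epidermal nuclei with no adipose or oenocyte UMI the log2 fold change was -3.48 (Benjamini-Hochberg adjusted p = 0.214 in edgeR), a setting in which no gene passed.

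*CG42821* was lower in *oenots>tsc1,tsc2* in the other nuclei as well, at 8.65 and 2.70 CPM against 32.7 and 21.4 CPM, a log2 fold change of -2.22 that did not pass (adjusted p = 0.183, edgeR). The test of the difference between epidermal and other nuclei gave -1.17 on the log2 scale (adjusted p = 0.524, edgeR), so a larger difference in the epidermis was not shown. The next gene on the same strand, *CG42822* (3R, 17413901 to 17414607), had 3 and 3 UMIs in *oenots>tsc1,tsc2* and 6 and 7 in *oenots>EGFP* epidermal nuclei, too few for the test between genotypes.

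The other lower genes were more abundant outside the epidermis, by a ratio of epidermal to other nuclei of 0.474 for *Sgp*, 0.297 for *CG33143*, 0.260 for *FASN3* and 0.244 for *LpR1*. *Sgp* (2L, 8519690 to 8521809) was at 71.2 and 38.4 CPM in *oenots>tsc1,tsc2* and 1047 and 1697 CPM in *oenots>EGFP* epidermal nuclei, a log2 fold change of -4.49 (SE 0.46, Benjamini-Hochberg adjusted p = 0.0109 in edgeR). It had the smallest adjusted p of all genes and passed under 12 of 15 alternative settings, against 9 for *CG42821*, 8 for *CG43101*, *soti*, *CG33143* and *LpR1*, 7 for *Dro*, *Obp51a*, *blanks*, *whip*, *Obp56d* and *FASN3*, 6 for *CG17242* and *CG31128* and 4 for *msopa*. A setting in which a gene was not tested counts here as not passed. *Sgp* was tested in all 15, but *Dro* in 11, *CG17242* and *msopa* in 12, and *blanks*, *CG33143*, *LpR1* and *FASN3* in 13. *FASN3*, the fatty acid synthase gene of oenocytes (3L, 25752859 to 25762779), was at 176 and 216 CPM in *oenots>tsc1,tsc2*, against 1098 and 1575 CPM in *oenots>EGFP* (log2 fold change -2.62, SE 0.39, adjusted p = 0.0466, edgeR). *LpR1*, a receptor for the lipid-carrying lipophorin particles (3R, 25741348 to 25763105), was at 38.8 and 23.6 CPM, against 217 and 292 CPM (log2 fold change -2.86, SE 0.43, adjusted p = 0.0466, edgeR). *CG33143* (2R, 22614328 to 22634084, overlapping *CG17807* on the opposite strand) had 0 and 1 UMIs in *oenots>tsc1,tsc2*, against 27 and 37 in *oenots>EGFP*, a ratio of pooled CPM of 0.0153 with a 95% counting interval (exact) of 0.000381 to 0.0882.

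These same 4 genes were far higher in oenocyte-rule nuclei, those with 3 or more UMIs of the oenocyte list and more than of the other class lists. There *Sgp* was at 434 and 186 CPM in *oenots>tsc1,tsc2* and 10197 and 12308 CPM in *oenots>EGFP* nuclei, and *FASN3* at 3038 and 5000 CPM against 17548 and 23726 CPM. In epidermal nuclei the summed oenocyte list was at 1496 and 1871 CPM in *oenots>tsc1,tsc2*, against 2677 and 3794 CPM in *oenots>EGFP*, and the summed adipose list at 6808 and 6695 CPM, against 9549 and 11266 CPM. All oenocyte genes except *Cyp4g1* passed the filter on low counts. For 4 of these 5 (80%) both *oenots>tsc1,tsc2* libraries lay below both controls, and for 5 of 7 adipose genes (71.4%) likewise, against 24.7% of all genes tested. At 250 UMIs per nucleus, a UMI of *Sgp* was found in 1.53% and 1.27% of *oenots>tsc1,tsc2* and 7.12% and 10.2% of *oenots>EGFP* epidermal nuclei, and in 2.36% and 1.23%, against 14.6% and 15.5%, of the other nuclei. For *FASN3* the epidermal shares were 2.44% and 3.04%, against 7.62% and 8.65%, and those of the other nuclei 8.08% and 21.4%, against 19.98% and 20.07%. With the share in *oenots>EGFP* epidermal nuclei below that of the other nuclei, expression by the epidermis cannot be read from these UMIs, and the part of oenocyte RNA in the 4 differences was not tested. In epidermal nuclei without adipose or oenocyte UMIs the log2 fold change of *Sgp* was -3.62 (adjusted p = 0.214, edgeR). *LpR1* and *CG33143* had too few counts there to be tested, and *FASN3* is a member of the oenocyte list and so is at 0 in those nuclei by their choice.

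Among the higher genes, *Dro* (2R, 14745961 to 14746714) encodes drosocin, an antimicrobial peptide. It had 59 and 9 UMIs in *oenots>tsc1,tsc2* epidermal nuclei (95.5 and 26.6 CPM) and 0 and 0 UMIs in *oenots>EGFP* (Benjamini-Hochberg adjusted p = 0.0466 in edgeR). In *oenots>EGFP*, 3 UMIs per library would be 6.31 and 6.53 CPM, and the *oenots>tsc1,tsc2* mean of *Dro* was 9.51-fold the mean of these floors. Such a ratio allows for no counting error in *oenots>tsc1,tsc2*, so it is no lower bound. A single nucleus held 25 of the 59 UMIs of *Dro*, and the rest came from 24 nuclei. *CG43101* (2R, 15013047 to 15013522, overlapping *hbs* on the opposite strand) had 35 and 47 UMIs against 0 and 0, with a mean 15.2-fold the same floor. *CG17242* (2L, 2268106 to 2269140) had 24 and 12 UMIs against 0 and 0, with a mean 5.79-fold that floor. In *oenots>tsc1,tsc2* replicate 2 a single nucleus held 21 of the 47 UMIs of *CG43101* and 6 of the 12 of *CG17242*.

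*Obp51a* and *Obp56d* encode odorant-binding proteins, a family of small secreted carrier proteins. *Obp51a* (2R, 15024375 to 15024839, also overlapping *hbs*) was at 93.8 and 234 CPM in *oenots>tsc1,tsc2*, against 8.41 and 0 CPM in *oenots>EGFP* (log2 fold change 5.31, SE 0.86, adjusted p = 0.0466, edgeR), and 31 of the 79 UMIs of *oenots>tsc1,tsc2* replicate 2 lay in a single nucleus. *Obp56d* (2R, 19702924 to 19703915) had the highest level of the 10, at 916 and 535 CPM in *oenots>tsc1,tsc2* and 141 and 126 CPM in *oenots>EGFP* (log2 fold change 2.55, SE 0.40, adjusted p = 0.0466, edgeR). Its UMIs were concentrated: of 181 in *oenots>tsc1,tsc2* replicate 2, 144 lay in a single nucleus, and only 6 nuclei (1.52%) held any, against 18 and 19 nuclei (2.25% and 2.49%) in *oenots>EGFP*.

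*blanks*, *soti* and *msopa* are known from the male germ line or male-specific expression. *soti*, a regulator of caspase activity in maturing spermatids (3R, 14380663 to 14381699), was at 225 and 195 CPM in *oenots>tsc1,tsc2*, against 27.3 and 43.5 CPM in *oenots>EGFP* (log2 fold change 2.70, SE 0.42, adjusted p = 0.0466, edgeR). Single nuclei held 33 of its 139 UMIs in *oenots>tsc1,tsc2* replicate 1 and 20 of its 66 in replicate 2. *blanks*, a double-stranded RNA-binding protein gene needed for spermatogenesis (3L, 5497523 to 5498958), was at 79.3 and 106 CPM, against 12.6 and 4.35 CPM (log2 fold change 3.52, SE 0.56, adjusted p = 0.0466, edgeR). *msopa* (3L, 22082720 to 22083367) had 45 and 11 UMIs, against 2 and 1, a ratio of pooled CPM of 18.3 with a 95% counting interval (exact) of 5.93 to 91.2, and all 11 UMIs of *oenots>tsc1,tsc2* replicate 2 came from 1 nucleus. *CG31128* (3R, 24469397 to 24470310) was at 77.7 and 56.2 CPM in *oenots>tsc1,tsc2*, against 6.31 and 10.9 CPM in *oenots>EGFP* (log2 fold change 3.07, SE 0.50, adjusted p = 0.0466, edgeR). *whip* (2R, 8362359 to 8363218, overlapping *pdm3* on the opposite strand) was at 112 and 82.8 CPM, against 16.8 and 8.70 CPM (log2 fold change 3.03, SE 0.47, adjusted p = 0.0466, edgeR). For both genes the libraries of the genotypes lay well apart. In *oenots>tsc1,tsc2* replicate 2 a single nucleus held 5 of the 19 UMIs of *CG31128*, and 1 held 10 of the 28 of *whip*.

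Markers of the male tract and germ line were measured in the same nuclei. All 10 listed markers were tested, and *soti* alone was called by edgeR, against 2 members by DESeq2. Both *oenots>tsc1,tsc2* libraries lay above both controls for 3 markers (30%, against 14% of all genes tested) and below for none (against 24.7%). Their median log2 fold change was 1.65, against 0.02 over all genes tested, and it was 1.94 in the other nuclei of the same libraries. It was 0.71 without *oenots>tsc1,tsc2* replicate 1, 0.69 without *oenots>EGFP* replicate 2, 2.25 without *oenots>tsc1,tsc2* replicate 2 and 7.10 without *oenots>EGFP* replicate 1, where fitted values against counts of 0 are no bound. Their summed level was 13504 and 5524 CPM in *oenots>tsc1,tsc2* and 4901 and 1997 CPM in *oenots>EGFP* epidermal nuclei, with 15221 and 7030 CPM against 4583 and 339 CPM in the other nuclei. *EbpIII*, an ejaculatory bulb protein gene chosen here after its values were seen, was at 4608 and 3399 CPM against 1556 and 1908 CPM and did not pass (adjusted p = 0.109, edgeR). None of the 10 markers was at 0 in either *oenots>tsc1,tsc2* library, and 3 were at 0 in *oenots>EGFP* replicate 2. The male reproductive organs had been dissected away. Even so, the paper considers some minor clusters of its control nuclei likely to belong to the ejaculatory bulb, by genes that include *EbpIII* and *soti*. The part of RNA from remnants of these organs in the higher genes was not tested.

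None of the 15 differences was shown to be particular to epidermal nuclei. In the other nuclei both *oenots>tsc1,tsc2* libraries lay on the same side of both controls for all 15 genes. The share of all genes lying apart in the other nuclei is not given here, so that count is a description. Of the 15, 12 were more abundant there than in epidermal nuclei, and none passed the interaction test of genotype and nucleus class. Over all other nuclei together edgeR called 0 of 9378 genes (1419 at an unadjusted p under 0.05). By class, edgeR called 72 of 6308 genes (1.14%) in oenocyte-rule nuclei, 29 higher (0.46%) and 43 lower (0.682%) and 5 of them among the 15, 1 of 3169 (0.0316%) in muscle-rule nuclei, which was *Sgp*, and 0 of 8444 in adipose-rule nuclei (1036 at an unadjusted p under 0.05). *blanks* was at 866 and 1358 CPM in *oenots>tsc1,tsc2* oenocyte-rule nuclei, against 18.3 and 11.5 CPM in *oenots>EGFP*, a log2 fold change of 6.23 there (adjusted p = 0.0201, edgeR). *Obp56d* had the reverse sign in oenocyte-rule nuclei, at 442 and 23.2 CPM in *oenots>tsc1,tsc2* and 498 and 11.5 CPM in *oenots>EGFP*, with the replicates far apart in both genotypes.

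**Figure D2:**
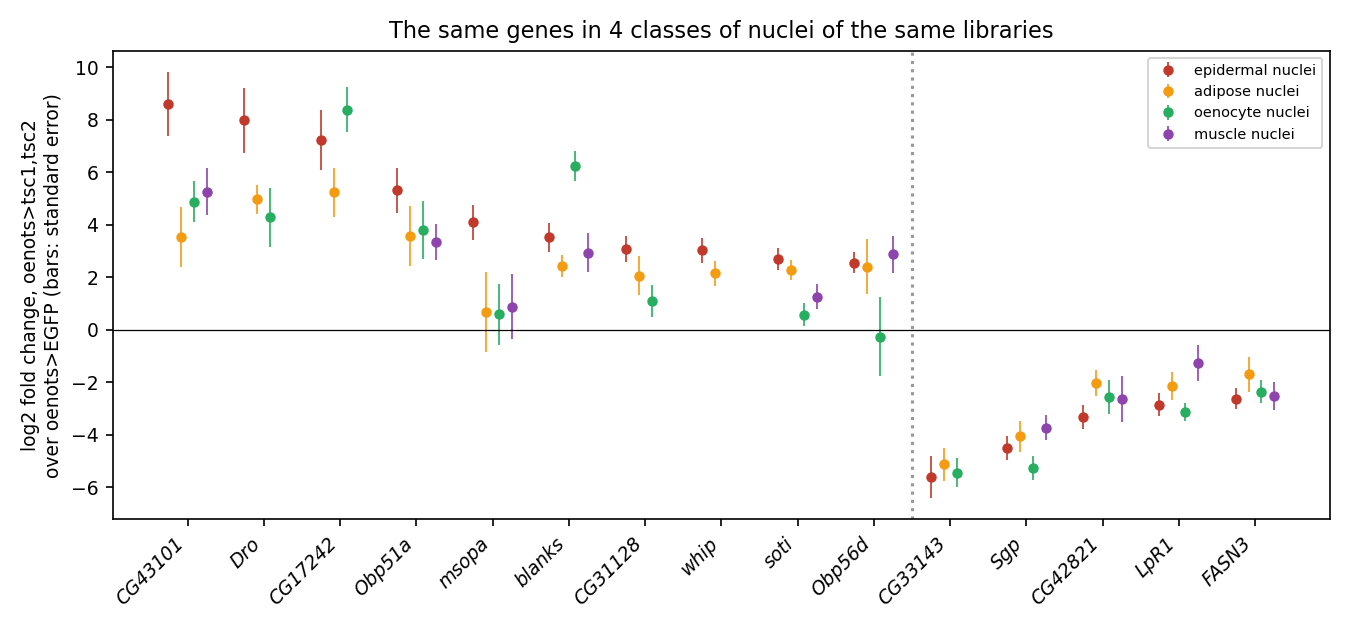
Log2 fold change of *oenots>tsc1,tsc2* over *oenots>EGFP* for the 15 genes in epidermal, adipose-rule, oenocyte-rule and muscle-rule nuclei of the same libraries, from a separate edgeR fit per class, with bars of 1 SE; a class is missing where the gene had too few counts. The 5 lower genes lie below 0 in every class drawn, and *Obp56d* in oenocyte nuclei is the one higher gene below 0; values against 0 UMIs depend on the fit and are not bounds.

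Ribosomal protein genes, which encode the proteins of the cytosolic ribosome and are a classical output of TOR signaling, took more of the UMIs in *oenots>tsc1,tsc2* epidermal nuclei. They made up 19.1% and 17.7% of the UMIs in *oenots>tsc1,tsc2* and 13.4% and 14.5% in *oenots>EGFP* epidermal nuclei, or 18.4 ± 0.990% and 13.96 ± 0.827% (SD, n = 2 each), and the libraries did not overlap. The median epidermal nucleus held 17.04% and 15.6% in *oenots>tsc1,tsc2*, against 12.03% and 13.3%. In the other nuclei the share was 9.53% and 10.1%, against 4.22% and 4.02%.

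Gene by gene, 82 of 88 ribosomal protein genes were tested, 57 (69.5%) had both *oenots>tsc1,tsc2* libraries above both controls, against 14% of all genes tested, and 2 had both below, against 24.7%. None passed the threshold in edgeR (17 at an unadjusted p under 0.05, against 7.97% of all genes tested) or in DESeq2. Their median log2 fold change was 0.52 in epidermal nuclei and 1.18 in the other nuclei of the same libraries, against 0.02 over all genes tested in epidermal nuclei. *RpL27A* was at 7266 and 7094 CPM, against 5321 and 6196 CPM, a log2 fold change of 0.46 (SE 0.23, adjusted p = 0.702, edgeR). *RpS25* was at 6559 and 5962 CPM, against 5347 and 5193 CPM, a log2 fold change of 0.38 (SE 0.23, adjusted p = 0.798, edgeR). The median of the list stayed above 0 under every setting run, between 0.22 in epidermal nuclei with no adipose or oenocyte UMI and 0.56 in the looser rule of 2 UMIs. With library totals alone it was 0.41, a scaling that moved the median of all genes to -0.09. The share was lower in the other nuclei than in epidermal nuclei of every library, and the part of RNA from other tissues in the difference was not tested.

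**Figure D3:**
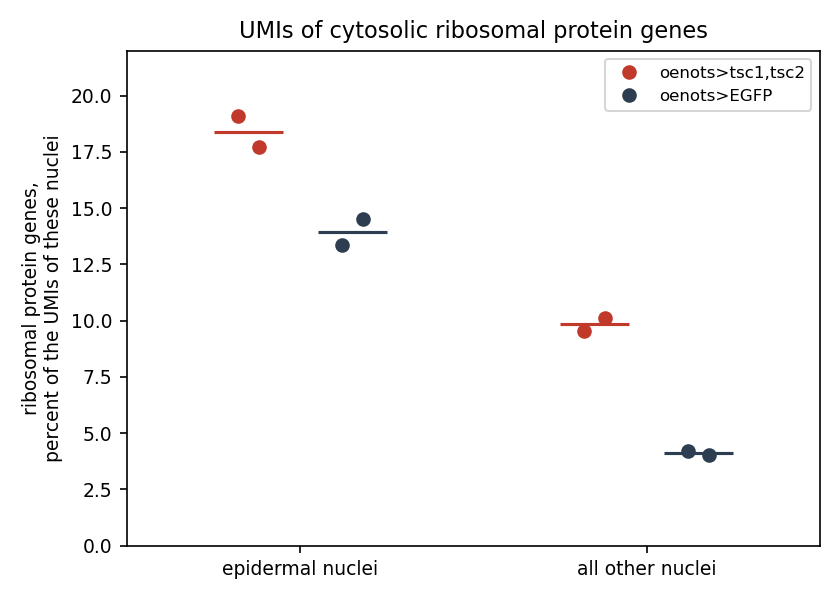
Percent of UMIs from cytosolic ribosomal protein genes, 1 point per library and a line at the mean of 2 libraries, in epidermal nuclei and in all other nuclei. The *oenots>tsc1,tsc2* points lie above the *oenots>EGFP* points in both kinds of nuclei, at 17.7% and 19.1% against 13.4% and 14.5% in epidermal nuclei.

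**Figure D4:**
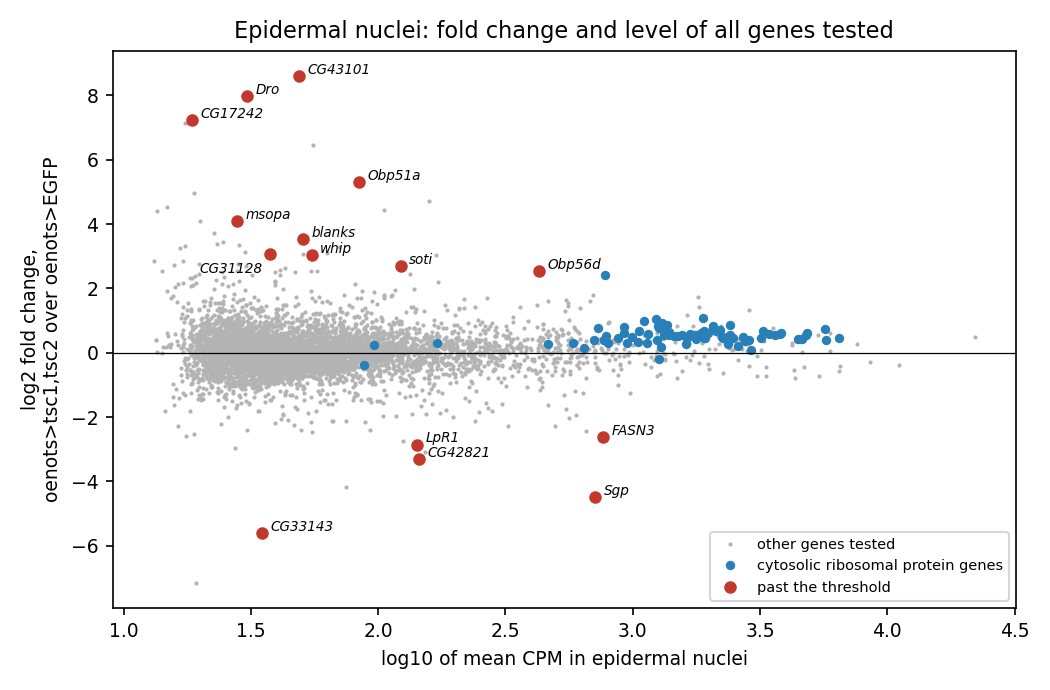
Log2 fold change of *oenots>tsc1,tsc2* over *oenots>EGFP* in epidermal nuclei against the log10 of the mean CPM for all 5856 genes tested, with ribosomal protein genes in blue and the 15 genes past the threshold in red. The ribosomal protein genes sit mostly above 0 with a median of 0.52, while the called genes lie beyond 2.5 in either direction.

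Among genes at least 5-fold higher in epidermal than in other nuclei over the 4 libraries, a set of 195 drawn after the data were seen and described without a test, *CG42821* alone was called. Both *oenots>tsc1,tsc2* libraries lay above both controls for 16 of them (8.21%, against 14% of all genes tested) and below for 69 (35.4%, against 24.7%), and the median log2 fold change was -0.13. That median was 0.17 without *oenots>tsc1,tsc2* replicate 1, 0.04 without *oenots>EGFP* replicate 1 and -0.46 without *oenots>tsc1,tsc2* replicate 2, so its sign rested on single libraries. Of the 12 further epidermal markers 0 passed in edgeR or DESeq2 (1 at an unadjusted p under 0.05), with a median of 0.03 that lay between -0.34 and 0.32 on leaving out each library. *CG31313* was at 7491 and 10573 CPM in *oenots>tsc1,tsc2* and 14035 and 12415 CPM in *oenots>EGFP*, a log2 fold change of -0.39 (SE 0.26, adjusted p = 0.814, edgeR). *Cys*, a cystatin-like protease inhibitor gene, was at 6077 and 8397 CPM, against 10792 and 8786 CPM (log2 fold change -0.28, SE 0.27, adjusted p = 0.912, edgeR).

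Cuticle proteins were tested for 15 of 136 listed genes, with a median log2 fold change of 0.12. Of the 15, 0 passed in edgeR (2 at an unadjusted p under 0.05, against 7.97% of all genes tested). The median was -0.74 without *oenots>tsc1,tsc2* replicate 2, -0.26 without *oenots>EGFP* replicate 2, -0.01 without *oenots>EGFP* replicate 1 and -0.27 in epidermal nuclei with no adipose or oenocyte UMI, so the median gives no direction. *obst-E*, a chitin-binding protein gene, was at 456 and 952 CPM in *oenots>tsc1,tsc2*, against 435 and 522 CPM in *oenots>EGFP*, and *obst-A* at 188 and 328 CPM, against 307 and 331 CPM, neither past the threshold. Chitin synthesis and remodelling genes (23 tested) had a median of -0.17, with *Idgf6* at 482 and 316 CPM against 446 and 337 CPM, and the tanning and pigment genes (15 tested) one of -0.12. *Ddc*, the dopa decarboxylase of tanning, was at 277 and 310 CPM, against 278 and 359 CPM. None of the genes in these groups passed, and the 3 tested genes for ZP-domain proteins of the apical matrix, *tyn*, *pio* and *qsm*, did not either (median 0.48, and -0.10 without *oenots>tsc1,tsc2* replicate 2).

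Some epidermal genes, chosen here after their values were seen from those with the smallest p among the 195, lay below both controls without passing. *Cpr76Bc*, a cuticle protein gene, was at 9.71 and 23.6 CPM in *oenots>tsc1,tsc2*, against 90.4 and 95.7 CPM in *oenots>EGFP* (log2 fold change -2.46, SE 0.51, adjusted p = 0.101, edgeR). The tanning enzyme gene *e* (ebony), which joins beta-alanine to dopamine, was at 6.47 and 26.6 CPM, against 86.2 and 67.4 CPM (log2 fold change -2.26, SE 0.61, adjusted p = 0.223, edgeR). *CG31205* was at 202 and 260 CPM, against 780 and 944 CPM (log2 fold change -1.75, SE 0.39, adjusted p = 0.128, edgeR). *Lcp65Ag3*, a larval cuticle protein gene, was on the other side, at 165 and 352 CPM, against 118 and 111 CPM (log2 fold change 1.33, SE 0.48, adjusted p = 0.445, edgeR).

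**Figure D5:**
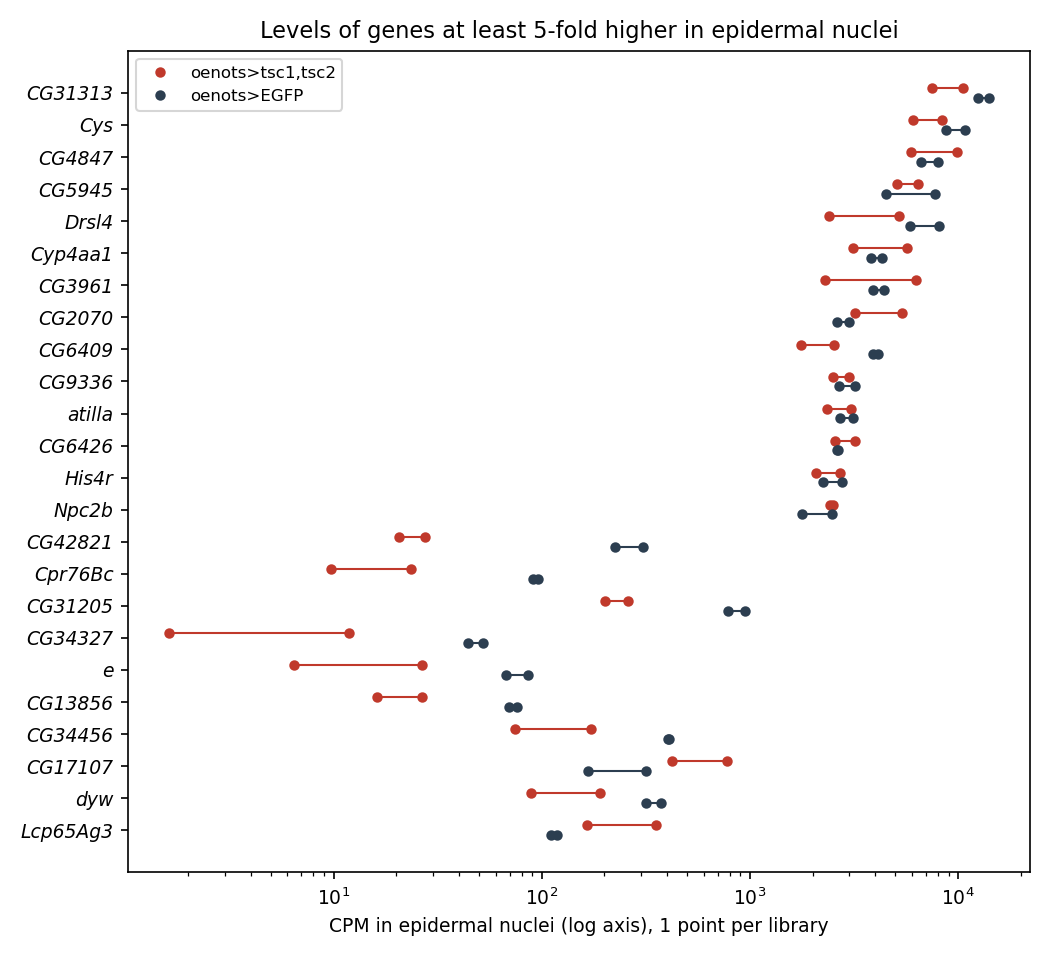
Level in epidermal nuclei, on a log axis in CPM with 1 point per library joined within a genotype, of genes at least 5-fold higher in epidermal nuclei: the 14 with the highest mean level, then the 10 with the smallest p. The abundant genes mostly overlap or lie close between *oenots>tsc1,tsc2* and *oenots>EGFP*, and of the genes shown only *CG42821* passed the threshold.

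The insulin and TOR pathway list showed no member past the threshold in epidermal nuclei. Of 25 tested members, 5 were at an unadjusted p under 0.05 in edgeR, a larger share than the 7.97% of all genes tested. Both *oenots>tsc1,tsc2* libraries lay above both controls for 3 (12%, against 14% of all genes tested) and below for 6 (24%, against 24.7%), close to the shares of all genes. The median log2 fold change was 0.15, and -0.17 without *oenots>tsc1,tsc2* replicate 2. *Thor*, the 4E-BP translation inhibitor, was at 967 and 491 CPM in *oenots>tsc1,tsc2* and 620 and 283 CPM in *oenots>EGFP* (log2 fold change 0.78, SE 0.47, adjusted p = 0.785, edgeR), so its groups overlapped. *ImpL2*, a secreted inhibitor of insulin signaling, was at 440 and 1289 CPM, against 339 and 407 CPM (log2 fold change 1.40, SE 0.53, adjusted p = 0.490, edgeR). Both *oenots>tsc1,tsc2* libraries lay above the controls for *ImpL2*, with replicate 2 far above replicate 1.

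Autophagy genes (14 tested, median -0.08, and 0.22 without *oenots>EGFP* replicate 2) held *ref(2)P*, the p62 receptor of selective autophagy, at 458 and 568 CPM in *oenots>tsc1,tsc2*, against 231 and 191 CPM in *oenots>EGFP* (log2 fold change 1.42, SE 0.39, adjusted p = 0.228, edgeR). In the other nuclei *ref(2)P* had a log2 fold change of 2.34. *Atg8a*, the ubiquitin-like autophagosome protein, was at 705 and 834 CPM, against 646 and 725 CPM (adjusted p = 0.932, edgeR). None of the autophagy genes passed.

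Fatty acid and hydrocarbon synthesis genes had *FASN3* called lower among 19 tested and a median log2 fold change of -0.58. Both *oenots>tsc1,tsc2* libraries lay below both controls for 11 (57.9%, against 24.7% of all genes tested) and above for 5 (26.3%, against 14%). In epidermal nuclei with no adipose or oenocyte UMI 16 members could be tested, with a median of 0.11, against -0.24 for the same 16 members in all epidermal nuclei. Without *oenots>EGFP* replicate 2 the median of the list was -0.25. Lipid storage and mobilization genes, of which *LpR1* was called lower among 19 tested, had a median of -0.19, which was 0.11 without *oenots>tsc1,tsc2* replicate 2 and -0.53 without its replicate 1. *FASN1*, the fatty acid synthase of most tissues and named here after its values were seen, was at 1919 and 2332 CPM in *oenots>tsc1,tsc2*, against 1378 and 1260 CPM in *oenots>EGFP* (log2 fold change 0.84, SE 0.32, adjusted p = 0.499, edgeR). The cytochrome P450 genes (43 tested, median -0.06) and glutathione S-transferases (24 tested, median -0.01) had no member past the threshold, and both medians changed sign on leaving out a library. *Cyp4aa1*, which was 31.2-fold higher in epidermal than in other nuclei, was at 3122 and 5669 CPM in *oenots>tsc1,tsc2*, against 3796 and 4319 CPM in *oenots>EGFP*.

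Of the antimicrobial and immune genes, *Dro* was the only one of 19 tested past the threshold. At an unadjusted p under 0.05 in edgeR there were 6 of the 19, a larger share than the 7.97% of all genes tested. The median was 0.09, with 0.07 to 0.75 on leaving out each library and the highest value without *oenots>EGFP* replicate 1. *Drs*, which encodes the antifungal peptide drosomycin and was named after its values were seen, was at 286 and 97.5 CPM in *oenots>tsc1,tsc2* and 29.4 and 126 CPM in *oenots>EGFP*, with overlapping groups. Heat shock and chaperone genes (14 tested, median 0.34, and 0.86 without *oenots>EGFP* replicate 2) had no member past the threshold, and *Hsc70-4*, a constitutive Hsp70-family chaperone gene, was at 126 and 1428 CPM in *oenots>tsc1,tsc2* and 109 and 559 CPM in *oenots>EGFP*, with the higher value in replicate 2 of both genotypes. Transcripts of the mitochondrial genome took 2.46% and 1.27% of the UMIs in *oenots>tsc1,tsc2*, against 3.96% and 2.03% in *oenots>EGFP*. Of 11 tested mitochondrial genes 0 passed in edgeR (3 at an unadjusted p under 0.05, against 7.97% of all genes tested) and 1 in DESeq2. Both *oenots>tsc1,tsc2* libraries lay above both controls for none (against 14% of all genes tested) and below for 4 (36.4%, against 24.7%). The median of -0.62 became 0.05 without *oenots>EGFP* replicate 1.

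The lists of other pathways and cell types that follow had no member past the threshold in edgeR, except the oenocyte list, and DESeq2 called 1 gut or tubule gene and 2 oenocyte genes among them, all lower. Their medians were 0.10 for epidermal and segment transcription factors (12 tested), -0.04 for junction and polarity genes (21), 0.46 for basement membrane (9), 0.09 for wound and JNK genes (15), 0.08 for PDGF/VEGF and EGF signaling (18) and 0.06 for the core clock (10). Markers of other cell types had medians of 0.30 for the other muscle genes (19 tested), -0.67 for adipose tissue (7), 0.17 for trachea (5), -0.18 for tendon (7), -0.58 for hemocytes (4), -0.40 for neurons and glia (5) and -1.10 for gut and tubule (10). The gut and tubule median was -2.69 without *oenots>tsc1,tsc2* replicate 1, where 8 members were called lower, and -0.50 without its replicate 2, and that of neurons and glia was 0.06 without *oenots>EGFP* replicate 1. Over all 30 lists described, 18 changed the sign of their median on leaving out 1 library, so a small median gives no direction. The oenocyte list had *FASN3* past the threshold among 5 tested and a median of -1.17. *whe*, the gut or tubule gene with the highest level, was at 319 and 154 CPM in *oenots>tsc1,tsc2*, against 1361 and 570 CPM in *oenots>EGFP* (adjusted p = 0.197, edgeR).

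To ask whether a response differed between the epidermis and the rest of the cuticle, the interaction of genotype and nucleus class was tested with edgeR in epidermal and all other nuclei of the same libraries, with the library as a term. Of 8067 genes 13 passed (0.161%), 5 with a higher (0.062%) and 8 with a lower log2 fold change in epidermal than in other nuclei (0.0992%). For most of them the larger difference between genotypes lay in the other nuclei. *CG5973* (2L, 7437492 to 7445882, overlapping *santa-maria* on the opposite strand), for example, was at 906 and 1966 CPM in *oenots>tsc1,tsc2* and 1394 and 999 CPM in *oenots>EGFP* epidermal nuclei, while in the other nuclei it was at 133 and 367 CPM, against 759 and 727 CPM. Its interaction was 2.12 on the log2 scale (SE 0.31, adjusted p = 2.91e-05, edgeR), the smallest adjusted p of the 13. *snsl* was nearly even in epidermal nuclei, at 25.9 and 11.8 CPM against 18.9 and 17.4 CPM, and at 48.0 and 94.5 CPM against 3.24 and 4.04 CPM in the other nuclei.

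*CalpA* and *SC35* had a larger difference in epidermal nuclei than in all other nuclei together. *CalpA*, a calpain protease gene (2R, 19425113 to 19430564), was at 107 and 115.3 CPM in *oenots>tsc1,tsc2*, against 56.8 and 28.3 CPM in *oenots>EGFP* epidermal nuclei, and at 48.6 and 45.01 CPM, against 83.4 and 53.1 CPM, in the other nuclei. In muscle-rule nuclei *CalpA* was also higher, at 78.5 and 76.4 CPM against 53.0 and 28.4 CPM (log2 fold change 1.02, adjusted p = 0.822, edgeR). Its log2 fold change was -0.57 in adipose-rule and -0.90 in oenocyte-rule nuclei. *SC35*, a splicing factor gene of the SR family (2L, 12431075 to 12434665, overlapping *eRF3* on the opposite strand), had 20 and 17 UMIs in *oenots>tsc1,tsc2*, against 5 and 2 in *oenots>EGFP* epidermal nuclei. Both *oenots>tsc1,tsc2* libraries lay above both controls for each gene, but neither passed between genotypes within the epidermis, with log2 fold changes of 1.50 and 2.51 (adjusted p = 0.267 and 0.179, edgeR). The interactions were 2.12 for *CalpA* and 2.78 for *SC35* (adjusted p = 0.00640 and 0.0202, edgeR).

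The other nuclei are a mixture whose make-up differed between the genotypes. Adipose-rule nuclei were 50.5% and 35.6% of *oenots>tsc1,tsc2* nuclei, against 59.6% and 64.6% of *oenots>EGFP* nuclei, and oenocyte-rule nuclei 17.3% and 30.3%, against 19.95% and 20.07%. The interaction carries these shares, and their part in it was not tested. It called 1 gene, *CG5973*, with DESeq2, 0 without *oenots>EGFP* replicate 2 (417 at an unadjusted p under 0.05) and 107 without *oenots>tsc1,tsc2* replicate 1.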

How the data were processed

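Single-nuclei RNA-sequencing of abdominal cuticle from 4 libraries, 2 per genotype, was used. The values are deposited counts of UMIs per gene and nucleus, made by the authors with Cell Ranger 3.1.0 on a pre-mRNA reference from FlyBase, corrected for ambient RNA with SoupX, filtered on total counts and clustered with Seurat 3.1.2 and Harmony; a single contamination setting leaves residual RNA of other cells possible. Strand in counting is not stated by the sources read, so overlapping genes on opposite strands may share reads. Of 13955 gene names 13294 matched the reference annotation, from which coordinates were taken. No doublet caller was run, since nuclei with extreme totals had been removed before deposit. All sample columns were mapped.

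Epidermal nuclei were chosen by the UMI rule given above, their counts were summed per library, and the 14 rule genes were left out. The members and gene lists were chosen with earlier results of these data known. Sums were tested with the quasi-likelihood test of edgeR 4.0.16 (R 4.3.3, limma 3.58.1) after TMM scaling (factors 0.896 to 1.07) and filterByExpr, at an adjusted p of 0.05 (Benjamini-Hochberg). The standard error is the log2 fold change divided by the square root of the F statistic, so it restates the test. CPM are per 1000000 UMIs of the epidermal sum without TMM. The interaction was fitted to epidermal and other sums with library as a term, since deviations from the genotype means correlated between them within a library (0.563 in *oenots>tsc1,tsc2*, 0.603 in *oenots>EGFP*, over 5856 genes). Replicates differed by more than counting noise (chi-square per degree of freedom 5.79 in *oenots>tsc1,tsc2* and 4.59 in *oenots>EGFP*). No source says that the libraries of a genotype came from separate cultures, so the p-values measure only the spread between these libraries.

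Named genes were the 6 rule genes, all called genes, the called members of each list or otherwise its 2 most abundant, the transgene, and the interaction genes with the 5 smallest p each way. On simulated counts the edgeR test recovered 92.2% of genes changed 4-fold and 30.2% of those changed 2-fold. The simulated spread between libraries was smaller than that of the real sums, whose fitted coefficient of variation between libraries was 0.284. These recovered shares are therefore too high for the present comparison. Alternatives were DESeq2 1.42.0, other scalings, filters and rules for epidermal nuclei, a replicate block and leaving out each library. The rule without any adipose or oenocyte UMI and the removal of shared barcodes were added after seeing the data. Python 3.11.15 with pandas 2.3.3, numpy 2.4.6, scipy 1.17.1 and matplotlib 3.10.9 was used.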

Additional observations from a re-analysis of the deposited data

Results flagged for a closer look

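The effect of genotype differed between epidermal and other nuclei, by the edgeR interaction test with Benjamini-Hochberg adjustment, for 13 genes. The log2 fold change was larger in epidermal than in other nuclei by 2.12 for *CG5973*, 2.12 for *CalpA*, 2.52 for *CG30377*, 2.78 for *SC35* and 1.12 for *Bom067*. It was smaller in epidermal nuclei, with an interaction of -3.72 for *snsl*, -3.44 for *CG12268*, -8.67 for *CG43149*, -2.84 for *CG13618*, -2.55 for *CG5612*, -1.94 for *Cyp4p3*, -4.95 for *CG42822* and -2.23 for *CG6231*. *CG43149* had 1 and 0 UMIs in *oenots>tsc1,tsc2* and 2 and 4 in *oenots>EGFP* epidermal nuclei, so its value rests on few counts. *CG12268* was at 620 and 424 CPM in *oenots>tsc1,tsc2* and 219 and 9.24 CPM in *oenots>EGFP* other nuclei, and *CG13618* at 1071 and 723 CPM, against 374 and 8.37 CPM, with the control replicates far apart for both genes.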

How the results depend on the processing

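Against 15 called genes (10 higher, 5 lower), DESeq2 called 38 (17 and 21), library totals alone 21 (10 and 11), a minimum of 10 counts in every library 71 (41 and 30), and no filter on low counts 0 (789 at an unadjusted p under 0.05). Nuclei with 5 or more epidermal UMIs gave 1 (0 and 1), the rule on nuclei thinned to 250 UMIs 1 (0 and 1), epidermal UMIs above adipose and oenocyte UMIs 13 (11 and 2), no adipose or oenocyte UMI 0, and unshared barcodes 21 (12 and 9). Leaving out each library gave 0 to 217 calls, 0 to 95 higher and 0 to 122 lower. A replicate block gave 187 (109 and 78), among them all 15. No source read says that same-numbered libraries shared a batch or day. With 2 pairs, their correlation of 0.178 cannot decide whether the numbers pair them.

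The interaction called 13 genes, against 1 with DESeq2, 60 with library totals, 3 with at least 10 counts in every sum and 0 with no replicate block in the form of the library term (195 at an unadjusted p under 0.05), and 0 to 107 on leaving out each library. The mean share of epidermal nuclei in *oenots>tsc1,tsc2*, 15.2%, became 7.86% with no adipose or oenocyte UMI. In *oenots>EGFP*, 10.3% became 11.96% with 2 or more epidermal UMIs, 8.43% with 5 or more, 7.49% with epidermal above adipose and oenocyte UMIs, 8.37% after thinning and 5.27% with no adipose or oenocyte UMI. For single named genes, 855 of 1055 values kept their call or size, 91 lost and 20 gained the threshold and 89 moved. The 15 called genes kept their sign wherever tested, while 72 values of 33 genes that had not passed changed sign. The cause of these changes was not tested. Calls rest on 2 libraries a genotype.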
